A study of Mus musculus with 115 samples.

Results

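The 10 genes of sarcoplasmic reticulum calcium handling, Ryr2, Atp2a2, Pln, Sln, Casq2, Trdn, Asph, Jph2, S100a1 and Slc8a1, were followed across mouse hearts that had or lacked the mitochondrial ADP/ATP carrier Ant1 (gene Slc25a4). The genes were chosen by name, and the rows of the count tables that carried those names were taken. Of the 10 genes, 9 had an amplicon among the 23930 in the tables, and all 9 were among the 15403 genes that passed the filter on low counts. Trdn, which encodes triadin, is not analysed here.

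All animals were on the C57BL/6JEiJ background, and 3 genotypes were compared: wild type, Ant1 -/- (knockout), and Ant1 -/- with the ND6 P25L variant of mitochondrial DNA (knockout ND6), which changes a subunit of respiratory complex I. All animals had been injected into the pericardium with 2.5e+11 vector genomes of an adeno-associated virus, either AAV2/9Des-Gfp (control vector) or AAV2/9Des-Gfp-mAnt1 (Ant1 vector). The groups were wild type with control vector (4 hearts, 22 libraries) or Ant1 vector (3 hearts, 10 libraries), knockout with control vector (3 hearts, 18 libraries) or Ant1 vector (4 hearts, 20 libraries), and knockout ND6 with control vector (3 hearts, 16 libraries) or Ant1 vector (3 hearts, 16 libraries). Hearts were taken 1, 3, 6, 9 or 12 months after infection, and the labels give neither the month of a library nor an animal's age or sex. No group was uninjected, so every group carried a vector, and the Ant1 -/- allele was shared by all knockout and knockout ND6 hearts.

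Libraries with the same title number, genotype and title code were summed as 1 heart, and a heart was 1 replicate. Heart totals ran from 16827518 to 54779297 counts. Values are CPM, the counts of an amplicon relative to the TMM-scaled total of its heart, fold changes and adjusted p-values are from edgeR's quasi-likelihood test with Benjamini-Hochberg adjustment over all 15403 genes, and a gene was called at an adjusted p under 0.05. Each gene was read from 1 amplicon, so levels are compared between hearts and never between genes. The labels do not say that each title number was a separate animal, so p-values measure the spread between these summed samples.

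The targeted gene was read first. Slc25a4 stood at 8464 to 11380 CPM in the 7 wild-type hearts and at 0.219 to 2.03 CPM in the 6 control-vector hearts of both Ant1 -/- genotypes. The 4 knockout hearts with Ant1 vector had 174 to 241 CPM. The 3 knockout ND6 hearts with Ant1 vector had 66.7 CPM in heart 5, 55.6 CPM in heart 37 and 0.732 CPM in heart 8, so heart 8 had no more Slc25a4 than control-vector hearts. Hearts 61 and 91, labelled knockout ND6 with control vector but coded in their titles like the hearts with Ant1 vector, had 169 and 151 CPM. They form a set of their own and enter no comparison. The control-vector and Ant1-vector hearts of the 6 compared groups never shared a count table, so the effect of the vector and the effect of the table cannot be told apart. Hearts 61 and 91 shared their pair of tables with control-vector hearts 22 (knockout ND6) and 70 (wild type).

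Contraction starts when calcium entering through L-type channels opens the ryanodine receptor Ryr2, which releases calcium from the sarcoplasmic reticulum. Casq2 (calsequestrin) buffers calcium inside the reticulum, Trdn and junctin (a product of the Asph gene) tie calsequestrin to Ryr2, and Jph2 (junctophilin) holds the reticulum close to the T-tubules. Relaxation follows as the pump SERCA2 (Atp2a2), held back by the small membrane proteins phospholamban (Pln) and sarcolipin (Sln), takes calcium back up, while the sodium-calcium exchanger Slc8a1 moves calcium out of the cell. S100a1 is a calcium sensor of cardiomyocytes that binds Ryr2 and SERCA2 and raises calcium cycling. In cardiac muscle Sln is best known as an atrial gene.

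Promoter windows of RefSeq (build GRCm38.p6, 250 bases before to 50 after the start of the gene) were matched by symbol for 6 of the 10 genes: Ryr2, Pln, Casq2, Jph2, S100a1 and Slc8a1. Atp2a2, Sln, Asph and Trdn were not matched. The windows of 5 genes that were called in a comparison are printed 5′ to 3′ on the strand of the gene. Capitals mark matches on either strand to any of 6 motifs. The E-box, a site of helix-loop-helix factors, was searched as CANNTG. The motif of the cardiac GATA factors was searched as AGATAA. The promoter element known as the TATA box was searched with the letters TATAAA. The site of oestrogen-related receptors, which act on genes of energy metabolism, was searched as AAGGTCA. The MEF2 box and the CArG box of muscle genes were searched by their usual consensus.
S100a1 (chr3:90514281-90514580, minus strand): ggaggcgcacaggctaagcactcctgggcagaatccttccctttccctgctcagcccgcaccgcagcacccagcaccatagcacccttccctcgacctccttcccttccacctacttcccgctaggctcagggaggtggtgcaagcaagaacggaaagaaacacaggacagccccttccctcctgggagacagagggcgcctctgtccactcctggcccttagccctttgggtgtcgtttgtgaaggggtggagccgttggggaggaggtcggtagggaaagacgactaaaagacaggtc
Ryr2 (chr13:12106896-12107195, minus strand): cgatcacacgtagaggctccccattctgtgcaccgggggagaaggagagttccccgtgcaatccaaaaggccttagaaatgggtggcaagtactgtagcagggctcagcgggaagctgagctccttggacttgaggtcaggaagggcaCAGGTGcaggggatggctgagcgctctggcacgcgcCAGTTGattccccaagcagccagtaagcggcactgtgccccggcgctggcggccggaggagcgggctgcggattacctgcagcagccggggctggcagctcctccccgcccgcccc
Pln (chr10:53337436-53337735, plus strand): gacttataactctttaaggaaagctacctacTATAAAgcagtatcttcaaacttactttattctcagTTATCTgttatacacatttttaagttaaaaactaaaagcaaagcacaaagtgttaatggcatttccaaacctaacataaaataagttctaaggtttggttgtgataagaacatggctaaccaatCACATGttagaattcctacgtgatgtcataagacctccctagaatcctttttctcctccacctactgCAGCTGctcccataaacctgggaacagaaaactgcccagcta
Slc8a1 (chr17:81738338-81738637, minus strand): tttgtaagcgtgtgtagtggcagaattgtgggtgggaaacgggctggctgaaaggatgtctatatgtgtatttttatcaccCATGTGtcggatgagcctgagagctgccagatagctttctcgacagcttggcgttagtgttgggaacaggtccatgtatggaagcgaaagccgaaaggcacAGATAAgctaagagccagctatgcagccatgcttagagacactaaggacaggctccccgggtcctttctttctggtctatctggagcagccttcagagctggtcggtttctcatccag
Casq2 (chr3:102086165-102086464, plus strand): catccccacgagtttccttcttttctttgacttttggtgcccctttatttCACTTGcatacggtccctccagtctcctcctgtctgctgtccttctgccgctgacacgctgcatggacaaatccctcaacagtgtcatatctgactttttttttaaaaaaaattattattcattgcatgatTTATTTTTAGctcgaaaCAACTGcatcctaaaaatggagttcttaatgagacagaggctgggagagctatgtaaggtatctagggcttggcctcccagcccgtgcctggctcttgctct
The S100a1 window held none of the 6 motifs. The Ryr2 window held 2 E-boxes, which 72.3% of 32851 promoter windows of this length also hold at least once. The Pln window held 2 E-boxes, 1 GATA site and 1 TATA box, the Slc8a1 window 1 E-box and 1 GATA site, and the Casq2 window 2 E-boxes and 1 MEF2 box. Over all windows 11.2% held the GATA site, 13.6% the TATA box, 3.19% the MEF2 box, 4.72% the receptor site and 1.63% the CArG box. The receptor site was found once in the Jph2 window. These are matches of letters, not measured binding sites.

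S100a1 was the member that separated the genotypes in every comparison of Ant1 -/- with wild type. The 15 Ant1 -/- hearts, with the 2 of unclear vector label, lay at 797 to 1156 CPM and the 7 wild-type hearts at 549 to 698 CPM, with no overlap. No other member separated those 2 sets of hearts, and over all genes tested 3.51% did so in either direction. Atp2a2 was lower in knockout ND6 hearts than in wild type with either vector. Of the other members, Ryr2, Slc8a1 and Sln were called lower in comparisons between hearts that had received the Ant1 vector. With control vector the Sln values of both Ant1 -/- genotypes against wild type were also negative (-0.52 and -0.53), without a call. Pln was lower in knockout hearts with Ant1 vector than with control vector. Casq2 was lower in knockout ND6 hearts with Ant1 vector than with control vector. Asph and Jph2 were called in none of the 9 pairwise comparisons. The 9 members gave 81 values in those comparisons, of which 14 were called. Of all genes, 0.117% to 19.5% were called, depending on the comparison. Comparisons shared hearts, so the 81 values are not independent.

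**Figure D1:**
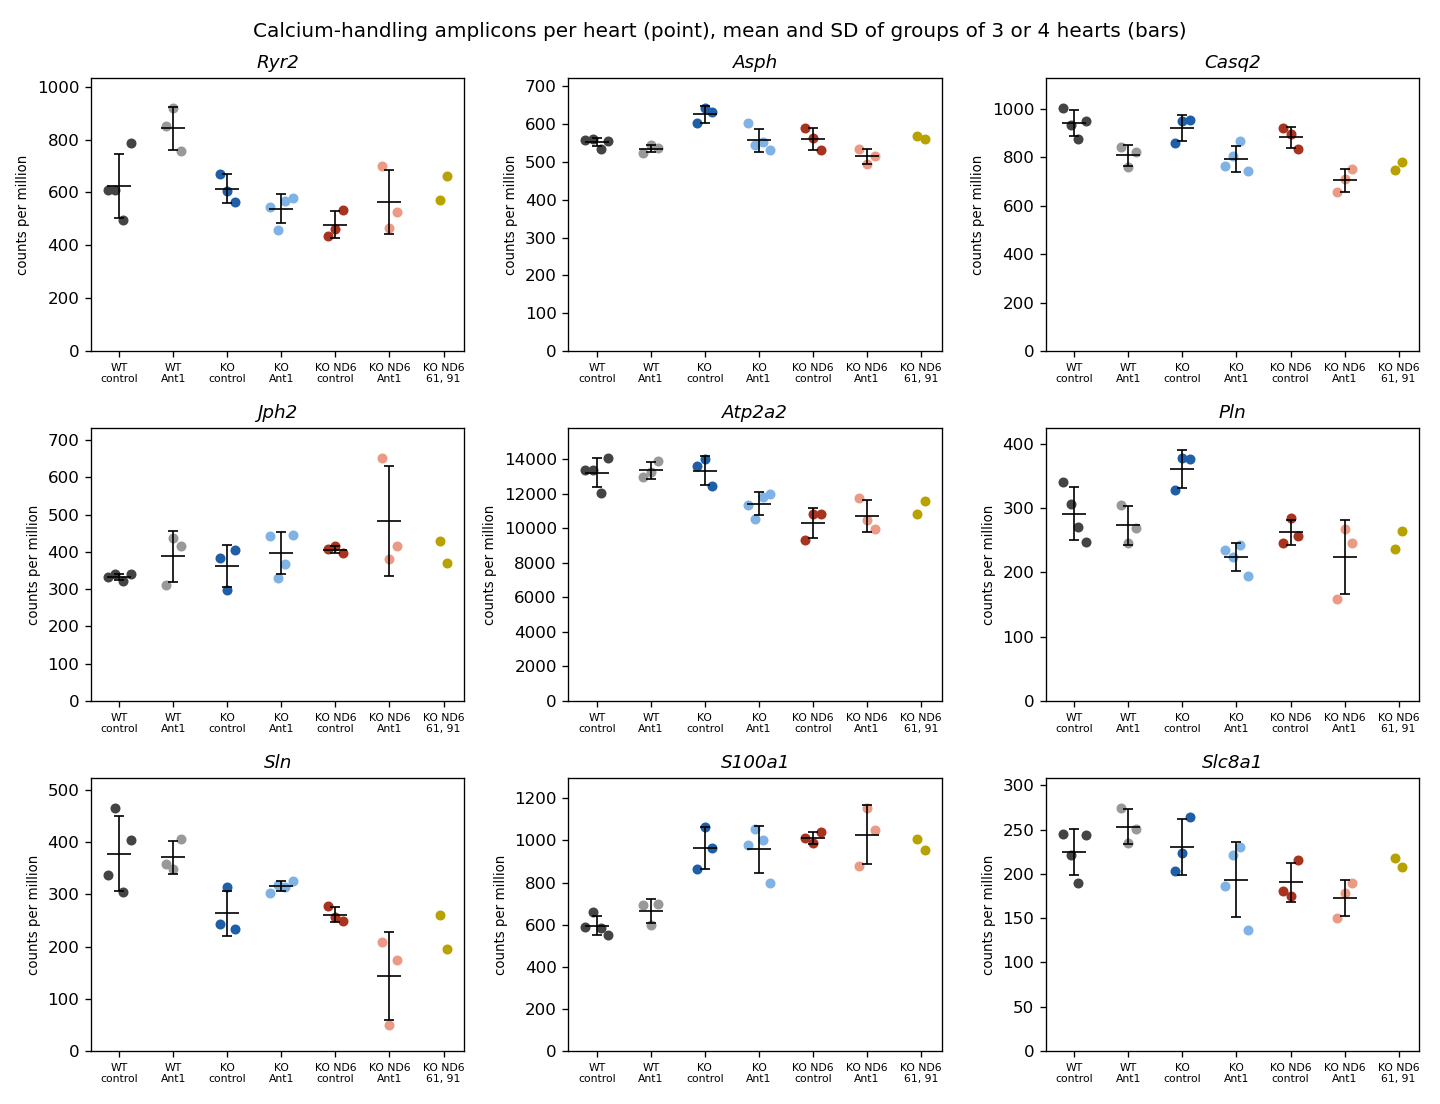
Levels in CPM of the 9 measured genes (vertical axes, each starting at 0) in every heart (points) by genotype and vector, with the mean and SD of groups of 3 or 4 hearts as bars. KO is Ant1 -/-, KO ND6 is Ant1 -/- ND6 P25L, and hearts 61 and 91 are drawn apart. S100a1 is the panel in which all Ant1 -/- hearts (797 to 1156 CPM) lie above all wild-type hearts (549 to 698 CPM).

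With control vector, knockout against wild type, 1 of 9 members was called (S100a1, higher), where 14.4% of all genes were called. The hearts of 2 of 9 (S100a1 and Asph, both above) did not overlap, as for 26.7% of all genes. Knockout ND6 against wild type gave 2 of 9 (S100a1 higher, Atp2a2 lower), against 12.7% of all genes, and the hearts of 4 of 9 did not overlap (26.3% of all genes). Knockout ND6 against knockout gave 1 of 9 (Atp2a2, lower), against 1.06%, and the hearts of 4 of 9 (Ryr2, Atp2a2, Pln and Asph, all below) did not overlap (25.3% of all genes). The first pair of these comparisons shares the wild-type hearts. The median log2 change of the 9 members was 0.03 in knockout and -0.15 in knockout ND6 against wild type, and over all genes it was -0.03 and -0.01.

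With Ant1 vector, knockout against wild type gave 2 of 9 (S100a1 higher, Ryr2 lower), against 9.89% of all genes, and the hearts of 6 of 9 did not overlap (20% of all genes). Knockout ND6 against wild type gave 5 of 9 (S100a1 higher, and Ryr2, Atp2a2, Sln and Slc8a1 lower), against 19.5%, and the hearts of those 5 and of Casq2 did not overlap (34.1% of all genes). Knockout ND6 against knockout gave 1 of 9 (Sln, lower), against 1.66%, and its hearts alone did not overlap (11% of all genes). Here too both comparisons with wild type share the same 3 wild-type hearts.

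Of the vector comparisons, knockout hearts gave 1 of 9 (Pln, lower with Ant1 vector), against 5.47% of all genes, and the hearts of 3 of 9 did not overlap (18.2% of all genes). Knockout ND6 hearts gave 1 of 9 (Casq2, lower), against 2.53%, and the hearts of 2 of 9 (Casq2 and Sln) did not overlap (24.9% of all genes). In wild-type hearts edgeR called 0 of 9, against 0.117% of all genes, and the hearts of Casq2 alone did not overlap (10.5% of all genes). There 2 members had an unadjusted p under 0.05 (Ryr2 and Casq2), and DESeq2 also called 0.

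**Figure D2:**
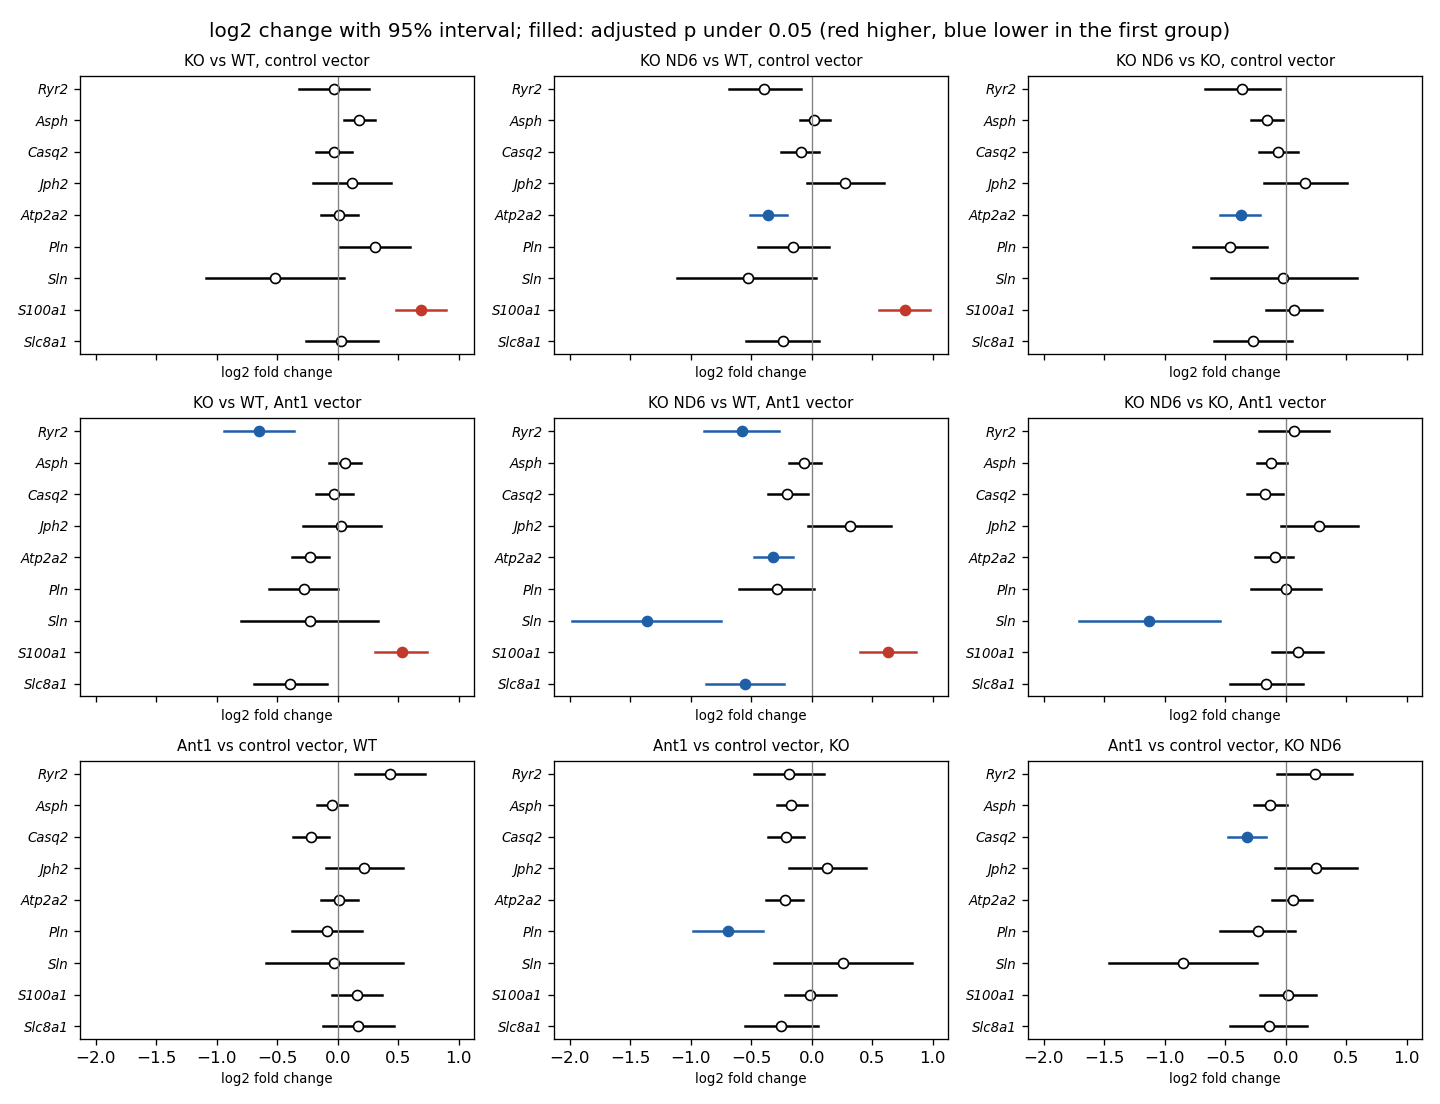
log2 fold changes (points, horizontal axis) with 95% intervals (lines) of the 9 genes in the 9 pairwise comparisons, with filled symbols for an adjusted p under 0.05 in edgeR. S100a1 lies to the right of 0 in the 4 comparisons of Ant1 -/- with wild type and its intervals reach across 0 in the other 5.

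S100a1 (ENSMUSG00000044080.9) lies on chromosome 3 at 90511034-90514392, minus strand, in build mm10. Wild-type hearts with control vector had 590, 660, 586 and 549 CPM (hearts 23, 24, 25 and 70), and those with Ant1 vector 696, 599 and 698 CPM (hearts 80, 81 and 83). Knockout hearts with control vector had 865, 1064 and 965 CPM (hearts 35, 36 and 38). The lowest of these knockout values was above the highest wild-type value. The rise was 1.62-fold (log2 0.69, SE 0.10, adjusted p = 8.1e-05).

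Knockout ND6 hearts with control vector were as high, at 1013, 986 and 1042 CPM (hearts 20, 21 and 22). That was 1.70-fold above wild type (log2 0.77, SE 0.10, adjusted p = 3.2e-05). The difference between knockout ND6 and knockout was 0.07 on the log2 scale, with a 95% interval from -0.16 to 0.30 (adjusted p = 0.832), so a change beyond that interval was not seen.

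S100a1 stayed above wild type in the Ant1 -/- hearts that had received the Ant1 vector. Knockout hearts with Ant1 vector had 980, 1055, 1002 and 797 CPM (hearts 20, 21, 22 and 27), and knockout ND6 hearts 1156, 1049 and 879 CPM (hearts 5, 8 and 37). Both groups were above the wild-type hearts with the same vector, by 1.44-fold (log2 0.53, adjusted p = 0.00224) and 1.55-fold (log2 0.63, adjusted p = 0.000446). Heart 8, whose Slc25a4 was at the level of control-vector hearts, was in the middle of its group, and without it the knockout ND6 change was 0.61 (adjusted p = 0.00237).

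The change with vector itself was -0.01 in knockout hearts (95% interval -0.22 to 0.20) and 0.02 in knockout ND6 hearts (-0.21 to 0.25), both on the log2 scale, and 0.16 in wild-type hearts (-0.05 to 0.37). Within shared count tables, S100a1 was higher by 0.50 in knockout heart 35 than in wild-type hearts 23, 24 and 25, by 0.92 in knockout ND6 heart 22 than in wild-type heart 70, and by 0.56 in knockout heart 20 than in wild-type hearts 80, 81 and 83, all in log2 units. Knockout ND6 and wild-type hearts with Ant1 vector shared no table. The summed level of 8 cardiomyocyte markers was 54700 to 62890 CPM in wild-type hearts and 58490 to 66000 CPM in Ant1 -/- hearts. The sum of 8 fibroblast markers with control vector was 2682 to 2812 CPM in wild-type hearts. It was lower without overlap in knockout (1786 to 2210 CPM) and knockout ND6 hearts (2085 to 2257 CPM), with 4 and 3 of the 8 called lower. With Ant1 vector it was 2422 to 2516 CPM in wild-type, 2060 to 2456 CPM in knockout and 2019 to 2404 CPM in knockout ND6 hearts. There 1 of the 8 was called lower in knockout, and 1 lower and 2 higher in knockout ND6. The sum of 7 endothelial markers was 768 to 874 CPM in knockout ND6 hearts and 628 to 713 CPM in wild-type hearts with Ant1 vector, without overlap, with 3 of the 7 called higher and 1 lower. Knockout hearts with Ant1 vector (720 to 763 CPM) also lay above those wild-type hearts. The part of these cell types in the members' values was not tested. In whole-heart RNA, more RNA per cell and a larger share of cells of a type cannot be told apart.

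Atp2a2 (ENSMUSG00000029467.15) lies on chromosome 5 at 122453513-122502225, minus strand. With control vector it was level between knockout and wild type and lower in knockout ND6 hearts. Wild-type hearts had 13370, 13380, 12060 and 14090 CPM and knockout hearts 13580, 14010 and 12440 CPM (same order of hearts as above), a ratio of 1.01 (log2 0.01, 95% interval -0.14 to 0.17, adjusted p = 0.934).

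Knockout ND6 hearts with control vector had 9312, 10830 and 10820 CPM, below every wild-type and every knockout heart with that vector. Against wild type Atp2a2 fell by 0.36 on the log2 scale (SE 0.075, 1.28-fold, adjusted p = 0.00317). Against knockout it fell by 0.37 (SE 0.079, 1.29-fold, adjusted p = 0.0221), and this call was lost without knockout heart 35 (adjusted p = 0.0778), knockout heart 36 (0.105) or knockout ND6 heart 20 (0.142). Within shared tables the difference was -0.39 between knockout ND6 hearts 20 and 21 and knockout hearts 36 and 38, and -0.38 between knockout ND6 heart 22 and wild-type heart 70.

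With Ant1 vector, wild-type hearts had 12940, 13240 and 13900 CPM (hearts 80, 81 and 83), knockout hearts 11350, 10510, 11820 and 12010 CPM (hearts 20, 21, 22 and 27) and knockout ND6 hearts 10480, 9938 and 11750 CPM (hearts 5, 8 and 37). Both Ant1 -/- groups lay below the wild-type hearts without overlap. The knockout ND6 group fell by 0.32 (adjusted p = 0.00778; 0.0447 without heart 8; 0.0647 in the fit with the count table as a covariate). The knockout value was -0.23 (adjusted p = 0.0559), and it was called without hearts 27 and 37 (-0.26, adjusted p = 0.0216). Knockout ND6 against knockout with this vector gave -0.09 (95% interval -0.25 to 0.06, adjusted p = 0.571), with hearts overlapping. The Atp2a2 change with vector in knockout hearts was -0.22 (95% interval -0.38 to -0.07, adjusted p = 0.0765), with the groups not overlapping. Hearts 61 and 91 had 10850 and 11580 CPM.

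Over groups, mean Atp2a2 was ordered as wild type with Ant1 vector, knockout with control vector and wild type with control vector, whose hearts overlapped. Knockout with Ant1 vector, hearts 61 and 91, knockout ND6 with Ant1 vector and knockout ND6 with control vector followed, and their hearts overlapped with their neighbours in that order. The step between the 3 higher and 4 lower groups, from wild type with control vector to knockout with Ant1 vector, was the one place where neighbours did not overlap.

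Pln (ENSMUSG00000038583.13) lies on chromosome 10 at 53337667-53345987, plus strand, inside the antisense gene Cep85l. No source used here gives the strand used in counting, and Cep85l had 32.7 to 50.4 CPM over all hearts. Knockout hearts with control vector were the highest group, at 328, 379 and 377 CPM (hearts 35, 36 and 38). Wild-type hearts with control vector had 341, 306, 272 and 247 CPM, and heart 23 reached into the knockout range. The value of knockout against wild type was 0.31 on the log2 scale (adjusted p = 0.143).

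Knockout hearts with Ant1 vector had 235, 225, 244 and 194 CPM, below all 3 knockout hearts with control vector. Pln fell by 0.69 on the log2 scale (SE 0.14, 1.61-fold, adjusted p = 0.00899), and it was called in all 14 alternatives run for that comparison. Since no count table held hearts of both groups, that difference is one of table and vector together. In wild-type hearts the value was -0.09 (95% interval -0.38 to 0.20), but of the knockout hearts only heart 35 with control vector and heart 20 with Ant1 vector shared tables with wild-type hearts, so the wild-type value does not carry the same difference in tables. The test of the difference between the 2 vector effects gave -0.59 (95% interval -1 to -0.19, adjusted p = 0.162), and -0.44 (adjusted p = 0.0877) in limma with the count table as a covariate. The summed level of 7 endothelial markers, none at 0, also stood apart in this comparison, at 594 to 610 CPM with control vector and 720 to 763 CPM with Ant1 vector, with 1 of the 7 called (Pecam1, higher). Sums of 4 ventricular myocyte markers stood apart too, at 21780 to 22270 CPM with control vector and 23930 to 24840 CPM with Ant1 vector, with 1 of the 4 called (lower). So did sums of 6 skeletal muscle markers, at 6.115 to 6.465 CPM and 7.452 to 10.53 CPM, with 0 called. The sums of 8 cardiomyocyte markers overlapped. The part of these markers in the fall of Pln was not tested.

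Knockout ND6 hearts had 246, 284 and 258 CPM with control vector and 268, 246 and 159 CPM with Ant1 vector (hearts 5, 8 and 37), a value of -0.23 (adjusted p = 0.406). With control vector they lay below all knockout hearts, by 0.46 on the log2 scale in the fit (adjusted p = 0.137). Heart 37 had the lowest Pln of the 22 hearts. It shared its pair of count tables with knockout heart 27 alone, and heart 27 had the lowest Pln of the knockout hearts. In both hearts S100a1, Slc8a1 and Casq2 were also the lowest of their group, and Jph2, Ryr2, Atp2a2 and Sln the highest. Asph was the lowest of its group in heart 27 and the highest in heart 37. Without hearts 27 and 37 the fall of Pln in knockout hearts was 0.62 (adjusted p = 0.00181).

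Sln (ENSMUSG00000042045.6) lies on chromosome 9 at 53850164-53854560, plus strand. It had the widest range of the members, from 49.2 to 467 CPM over 22 hearts, a ratio of 9.49, where the next widest, Pln, had 2.38. Wild-type hearts had 338, 467, 304 and 405 CPM with control vector and 359, 348 and 407 CPM with Ant1 vector. Knockout hearts had 243, 314 and 235 CPM with control vector and 304, 318, 315 and 327 CPM with Ant1 vector. With control vector, edgeR gave -0.52 for knockout against wild type (adjusted p = 0.22) and -0.53 for knockout ND6 (adjusted p = 0.22, hearts not overlapping). These were called in 3 of 14 and 3 of 15 alternatives. Among them was limma with the count table as a covariate (adjusted p = 0.0014 and 0.0017).

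Knockout ND6 hearts had 277, 257 and 249 CPM with control vector and 49.2, 175 and 209 CPM with Ant1 vector (hearts 5, 8 and 37). Those 3 were the lowest of the hearts in the comparisons. Sln fell by 1.36 on the log2 scale against wild-type hearts with Ant1 vector (SE 0.30, 2.57-fold, adjusted p = 0.00286). Against knockout hearts with Ant1 vector it fell by 1.13 (SE 0.28, 2.18-fold, adjusted p = 0.0431), a call lost without knockout heart 20 (0.0643), 21 (0.0856) or 22 (0.0769) or knockout ND6 heart 8 (0.0847).

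Heart 5 set much of the size of both values. Without it Sln fell by 0.95 against wild type (adjusted p = 0.000553) and by 0.72 against knockout (adjusted p = 0.0349). Against knockout ND6 hearts with control vector the value was -0.85 (adjusted p = 0.114). It was -0.44 without heart 5 (adjusted p = 0.135), and it passed the threshold at -1.22 without heart 37 (adjusted p = 0.0398) and at -1.22 without hearts 27 and 37 (adjusted p = 0.0324).

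Some atrial markers were low in the same hearts as Sln. Of 8 atrial markers 7 had an amplicon and none was at 0 in any heart, though Myl4 stood at 0.111 to 0.684 CPM throughout. In knockout ND6 hearts with Ant1 vector 2 of the 7 were called lower against wild type (Myl7 and Kcnj3) and 0 of the 7 against knockout by edgeR, where 5 had an unadjusted p under 0.05; all 7 values were negative in both comparisons. Their summed level was 1302 to 4650 CPM in knockout ND6 hearts with Ant1 vector, 4612 to 4961 CPM in knockout ND6 hearts with control vector, 4558 to 5132 CPM and 4862 to 5538 CPM in knockout hearts with control and Ant1 vector, 4085 to 6770 CPM and 4807 to 5373 CPM in the corresponding wild-type hearts, and 4182 to 4917 CPM in hearts 61 and 91. The lowest sum, 1302 CPM, was that of heart 5. Not every marker was low where Sln was low. Heart 8, with 175 CPM of Sln, had 3841 CPM of Nppa, above the 3368 to 3729 CPM of wild-type hearts with Ant1 vector, and 148 CPM of Bmp10, within their 123 to 197 CPM. Conversely, wild-type hearts 23 and 25 had 0.953 and 3.17 CPM of Bmp10 beside 338 and 304 CPM of Sln.

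Myl7, the atrial myosin light chain, had 154 CPM in heart 5, 513 in heart 8 and 693 in heart 37, against 1075 to 1219 CPM in wild-type hearts with the same vector, and fell by 1.36 on the log2 scale (adjusted p = 0.005). The ratio of Sln to Myl7 counts was 0.302 to 0.342 in knockout ND6 hearts with Ant1 vector, where Sln itself spanned 49.2 to 209 CPM. It was 0.290 to 0.334 in wild-type hearts with Ant1 vector, 0.299 to 0.333 with control vector, 0.272 to 0.371 and 0.316 to 0.391 in knockout hearts with control and Ant1 vector, and 0.312 to 0.341 in knockout ND6 hearts with control vector. Relative to Myl7, the gene most like Sln of all those searched, Sln in the knockout ND6 hearts with Ant1 vector lay within the range of the other groups.

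Relative to other atrial markers, all or only some of these hearts lay below the range of the other groups. The ratio of Sln to Kcnj3 was 0.901 to 2.22 in knockout ND6 hearts with Ant1 vector, below the 2.37 to 3.81 of the 17 hearts of the other 5 groups. Hearts 61 and 91 had 2.94 and 2.02. The ratio to Nppa was 0.0456 in heart 8, 0.0458 in heart 5 and 0.0770 in heart 37, against 0.0590 to 0.110 in those 17 hearts, so that 2 of the 3 lay below all of them. The ratio to Mybphl was 3.78 to 4.31, against 5.90 to 7.02 in wild-type hearts with Ant1 vector and 4.11 to 7.40 over the 17 hearts. For Sbk2 it was 5.50 to 7.31, against 6.13 to 10.4. Heart 8 lay within the range of the 17 hearts for both Mybphl (4.31) and Sbk2 (7.31). For Bmp10 the ratio was 1.19 in heart 8, 1.31 in heart 37 and 32.6 in heart 5, against 1.44 to 354. The part of atrial tissue in the Sln calls was not tested.

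**Figure D3:**
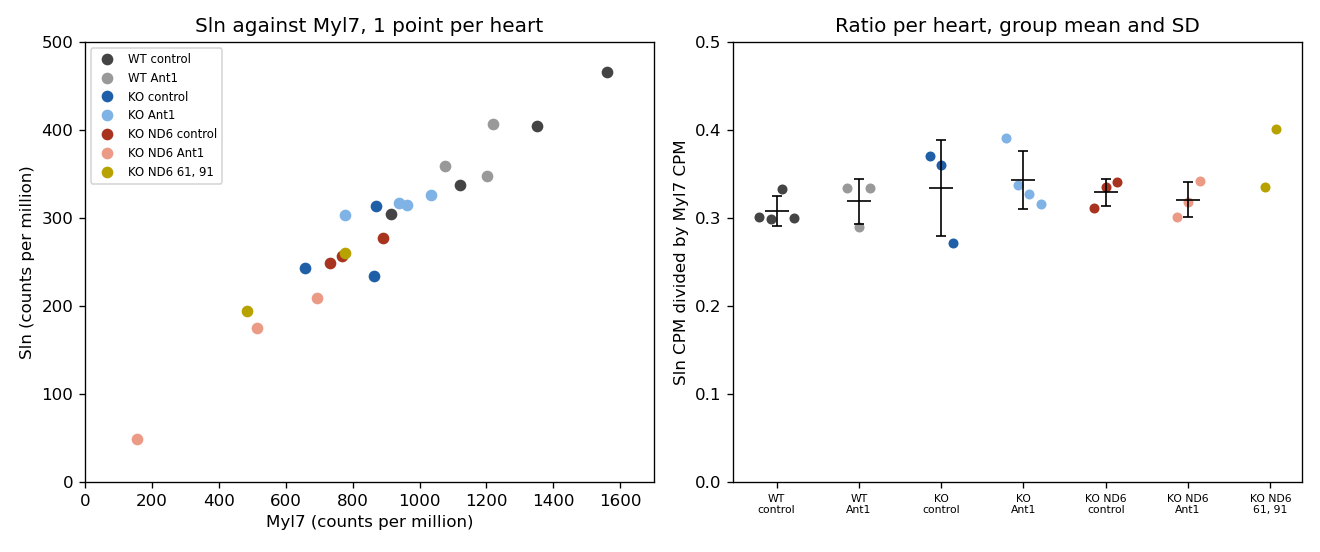
Left, Sln against Myl7, both in CPM, with 1 point per heart and colours for groups. Right, Sln counts divided by Myl7 counts per heart with the mean and SD of groups of 3 or 4. Heart 5 is the point at the lower left (154 and 49.2 CPM), and its ratio (0.319) lies among those of the other hearts.

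Ryr2 (ENSMUSG00000021313.16) lies on chromosome 13 at 11553102-12106945, minus strand. Wild-type hearts had 610, 609, 495 and 786 CPM with control vector and 850, 921 and 756 CPM with Ant1 vector. The mean was higher with Ant1 vector, with heart 70 reaching into that range, and the call was missed (log2 0.43, 95% interval 0.14 to 0.72, adjusted p = 0.225).

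Knockout hearts with Ant1 vector had 545, 459, 569 and 578 CPM, all below the wild-type hearts with that vector. Ryr2 fell by 0.65 (SE 0.14, 1.57-fold, adjusted p = 0.00472). Knockout ND6 hearts with Ant1 vector had 466, 525 and 698 CPM and fell by 0.58 (SE 0.15, 1.5-fold, adjusted p = 0.0098). That call was kept without heart 8 (adjusted p = 0.0422) and lost without heart 5 (adjusted p = 0.0535). Within a shared pair of tables, knockout heart 20 was 0.62 below wild-type hearts 80, 81 and 83 on the log2 scale.

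With control vector the picture was different for knockout hearts. They had 671, 607 and 562 CPM, within the wild-type range, and a value of -0.03 (95% interval -0.32 to 0.26, adjusted p = 0.927). The test of the vector effect in knockout against that in wild type gave -0.62 (95% interval -1.03 to -0.21, adjusted p = 0.141), which missed the threshold. Knockout ND6 hearts with control vector were the lowest group, at 437, 462 and 535 CPM, with values of -0.39 against wild type (adjusted p = 0.0765) and -0.36 against knockout (adjusted p = 0.259). In limma with the count table as a covariate, fitted to single libraries, knockout ND6 against wild type gave 7 members called with control vector. The edgeR fit on summed hearts gave 2. These fits differ in tool, unit and genes tested besides the covariate, so the 2 counts do not show the effect of the covariate alone. The covariate fit called 19.4% of all 12599 genes it tested in that comparison.

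Casq2 (ENSMUSG00000027861.13) lies on chromosome 3 at 102086415-102146514, plus strand. It was at like levels in the 3 genotypes with control vector, with 1006, 936, 875 and 952 CPM in wild type, 858, 951 and 955 CPM in knockout and 920, 895 and 834 CPM in knockout ND6. The knockout and knockout ND6 values against wild type were -0.03 (95% interval -0.18 to 0.12) and -0.09 (-0.25 to 0.06). With Ant1 vector the means of all 3 genotypes were lower: 845, 761 and 823 CPM in wild type, 766, 804, 866 and 745 CPM in knockout, and 712, 751 and 657 CPM in knockout ND6.

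The Casq2 values of Ant1 vector against control vector, each genotype with its own hearts, were -0.22 in wild type (adjusted p = 0.242), -0.21 in knockout (adjusted p = 0.09) and -0.32 in knockout ND6 (adjusted p = 0.0312). The last passed the threshold and was lost in 9 of 15 alternatives, among them the fits without knockout ND6 heart 37 (0.097), 5 (0.0637), 20 (0.14) or 21 (0.122). It was kept without heart 8 (adjusted p = 0.0475). In this comparison too the endothelial sums did not overlap, at 768 to 874 CPM with Ant1 vector and 630 to 681 CPM with control vector, and their part was not tested. Hearts 61 and 91 had 749 and 781 CPM, below every control-vector heart, among them knockout ND6 heart 22 (834 CPM) and wild-type heart 70 (952 CPM) of the same tables.

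Asph (ENSMUSG00000028207.18, chromosome 4 at 9448069-9669344, minus strand), which yields junctin besides an aspartyl hydroxylase, had the narrowest range of the members, from 494 to 644 CPM over 22 hearts. Whether its amplicon reads the junctin transcript was not resolved here. Knockout hearts with control vector had 602, 644 and 631 CPM against 559, 561, 536 and 556 CPM in wild type, without overlap, and the value was 0.18 (SE 0.061, adjusted p = 0.0555). With Ant1 vector it was 0.06 (95% interval -0.07 to 0.19). Knockout ND6 hearts had 590, 564 and 532 CPM with control vector, a value of 0.02 against wild type (95% interval -0.10 to 0.15).

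Jph2 (ENSMUSG00000017817.11, chromosome 2 at 163336242-163397993, minus strand) was even among wild-type hearts with control vector (332, 341, 323 and 340 CPM) and among knockout ND6 hearts with control vector (407, 416 and 396 CPM), and these groups did not overlap. The value was 0.28 (95% interval -0.04 to 0.60, adjusted p = 0.249). Other groups were wider: 310 to 438 CPM in wild type with Ant1 vector, 299 to 407 and 331 to 446 CPM in knockout with control and Ant1 vector, and 380, 415 and 653 CPM in knockout ND6 with Ant1 vector, the last from heart 37. Libraries of 1 heart varied most for Jph2 by the median coefficient of variation, at 10.0%, against 9.04% for Sln and 3.86% for both S100a1 and Asph. Libraries of knockout heart 27 with Ant1 vector varied most of all hearts for every member but Sln. Its Ryr2 ran from 195 to 703 CPM and its Atp2a2 from 6271 to 15210 CPM over 8 libraries.

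Slc8a1 (ENSMUSG00000054640.15, chromosome 17 at 81373105-81738377, minus strand) had 245, 221, 189 and 244 CPM in wild type and 203, 223 and 265 CPM in knockout with control vector. Knockout ND6 hearts with control vector had 181, 175 and 216 CPM, a value of -0.24 against wild type (adjusted p = 0.311). With Ant1 vector, wild-type hearts had 275, 235 and 251 CPM, knockout hearts 186, 221, 231 and 136 CPM, and knockout ND6 hearts 178, 190 and 151 CPM.

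Both Ant1 -/- groups with Ant1 vector lay below the wild-type hearts. The fall in knockout ND6 hearts was 0.55 (SE 0.15, 1.47-fold, adjusted p = 0.0152; 0.0209 without heart 8). It was lost without knockout ND6 heart 37 (0.0675) or wild-type heart 80 (0.0651). Leaving out hearts 27 and 37 together gave -0.47 (adjusted p = 0.0154). The knockout value was -0.39 (adjusted p = 0.09).

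Whether the difference between vectors differed between genotypes was tested for all 9 members. The test of the vector effect in knockout or knockout ND6 hearts against that in wild-type hearts gave 18 values, of which edgeR called 0 and 4 had an unadjusted p under 0.05 (Ryr2, Atp2a2, Pln and Slc8a1, all in knockout and all negative). DESeq2 also called 0. Over all genes 0.5% were called for knockout and 0.273% for knockout ND6.

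Counts of a member were also set against those of the pump in the same heart. The ratio of Pln to Atp2a2 counts, which depends on both amplicons and is read between hearts, was 0.0271 ± 0.0031 (SD, n = 3) in knockout hearts with control vector and 0.0197 ± 0.0024 (SD, n = 4) with Ant1 vector. It was 0.0221 ± 0.0033 (SD, n = 4) and 0.0205 ± 0.0027 (SD, n = 3) in wild-type hearts with control and Ant1 vector. Knockout ND6 hearts with control vector, where Atp2a2 was low, had 0.0255 ± 0.0015 (SD, n = 3), and with Ant1 vector they ranged from 0.0135 to 0.0255.

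The ratio of S100a1 to Atp2a2 counts kept the genotypes apart: 0.0390 to 0.0538 in the 7 wild-type hearts and 0.0637 to 0.110 in the Ant1 -/- hearts. The mean of this ratio was highest in knockout ND6 hearts with control vector, at 0.0987 ± 0.0093 (SD, n = 3), against 0.0724 ± 0.0076 (SD, n = 3) in knockout hearts. Between these groups S100a1 itself changed by 0.07 and Atp2a2 by -0.37 on the log2 scale. With Ant1 vector the S100a1 ratios of the 2 genotypes overlapped, at 0.0748 to 0.110 in knockout ND6 and 0.0664 to 0.100 in knockout hearts. The ratio of Ryr2 to Atp2a2 counts was near 0.046 in both Ant1 -/- genotypes with control vector (0.0460 ± 0.0031 and 0.0463 ± 0.0034; SD, n = 3 each) and 0.0470 ± 0.0062 (SD, n = 4) in wild type, so the ratio of the 2 amplicons in knockout ND6 hearts lay within the spread of the other groups. In wild-type hearts with Ant1 vector it was 0.0632 ± 0.0079 (SD, n = 3).

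**Figure D4:**
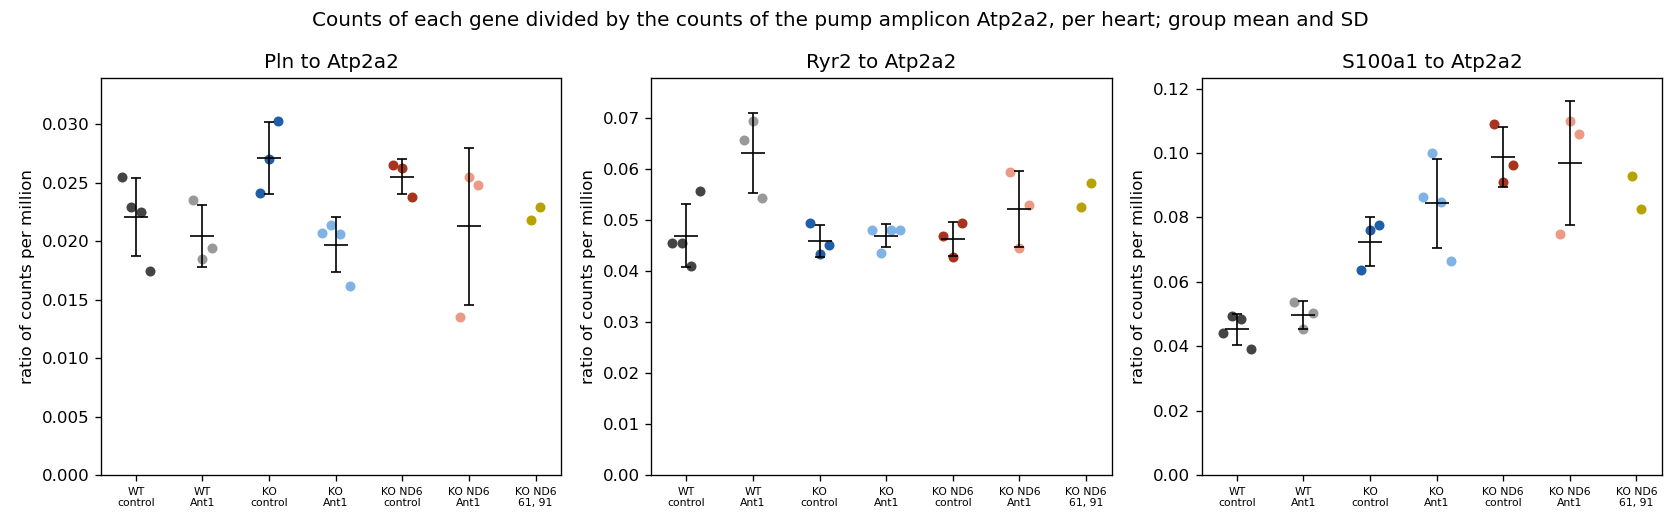
Counts of Pln, Ryr2 and S100a1 divided by counts of Atp2a2 in each heart (points), with the mean and SD of groups of 3 or 4 hearts, all axes starting at 0. The S100a1 ratio of every Ant1 -/- heart (0.0637 to 0.110) is above that of every wild-type heart (0.0390 to 0.0538).

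Other genes of calcium handling were read from 3 lists of 70 genes in all, of which 65 were tested. Of these, 6 were called in all 4 comparisons of Ant1 -/- with wild type, always in 1 direction: Calr, Casq1, Cacna1g and Cacna2d1 were lower and Nos1 and Sri higher. Of all 15403 genes tested, 515 were called in 1 direction in all 4. The lists' medians stayed near that of all genes in the comparisons with wild type, from -0.09 to 0.09 against -0.03 to 0.01.

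Among 23 other genes of the reticulum's calcium store, 3 rose and 2 fell in knockout against wild type with control vector, and 1 rose and 2 fell in knockout ND6. With Ant1 vector 0 rose and 2 fell in knockout, and 4 rose and 4 fell in knockout ND6. In that order, 21.7%, 13%, 8.7% and 34.8% of the list were called, beside 14.4%, 12.7%, 9.89% and 19.5% of all genes. Calr (calreticulin), a calcium-binding chaperone of the endoplasmic reticulum, was at group means of 2.76 to 3.53 CPM in the 4 Ant1 -/- groups and 516 and 534 CPM in wild type, a log2 change between -7.54 and -7.26. All Ant1 -/- hearts shared the targeted allele, and Calr was read from 1 amplicon. Loss of the transcript and loss of the amplicon's match to it can therefore not be told apart. Casq1, the calsequestrin of skeletal muscle, was at 1.71 to 2.99 CPM in the Ant1 -/- groups and at 12.4 and 13.0 CPM in wild type. Ryr1, the ryanodine receptor of skeletal muscle, rose from 0.193 CPM to 1.36 CPM in knockout and 1.66 CPM in knockout ND6 hearts with control vector (adjusted p = 0.00268 and 0.0015). The cardiac members Casq2 and Ryr2 were not called in those comparisons. Jph1 and Sypl2 rose in knockout with control vector. Itpr1, the type 1 receptor for inositol trisphosphate, rose with Ant1 vector in knockout ND6 (log2 0.69, adjusted p = 0.00427) and in knockout (log2 0.40, adjusted p = 0.0494), with the table confounded as above.

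Among 22 regulators of the channel and the pump, 4 rose and 0 fell in knockout against wild type with control vector, and 3 rose and 1 fell in knockout ND6. With Ant1 vector 3 rose and 4 fell in knockout, and 5 rose and 2 fell in knockout ND6, also against wild type. In that order, 18.2%, 18.2%, 31.8% and 31.8% of the list were called, beside 14.4%, 12.7%, 9.89% and 19.5% of all genes. Nos1, the neuronal nitric oxide synthase, stood at 0.811 CPM in wild type and 12.8 CPM in knockout hearts with control vector (log2 3.97, adjusted p = 7.77e-09), and at 1.38 CPM and 8.10 CPM with Ant1 vector (log2 2.57). Sri (sorcin), a calcium-binding protein that associates with Ryr2, rose by 0.24 to 0.41 on the log2 scale in the 4 comparisons. Fkbp1a, whose protein binds ryanodine receptors, rose in 3 of the 4, and Ppp1cb, a catalytic subunit of protein phosphatase 1, which removes phosphate from phospholamban, fell in both comparisons with Ant1 vector (log2 -0.38 and -0.48).

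Among 20 genes of the sarcolemma and T-tubule, 3 rose and 2 fell in knockout against wild type with control vector, and 1 rose and 3 fell in knockout ND6. With Ant1 vector 0 rose and 4 fell in knockout, and 0 rose and 3 fell in knockout ND6, also against wild type. In that order, 25%, 20%, 20% and 15% of the list were called, beside 14.4%, 12.7%, 9.89% and 19.5% of all genes. Cacna1g, a T-type calcium channel, had log2 changes from -1.41 to -0.99 in the 4 comparisons, and Cacna2d1, an auxiliary subunit of L-type channels, from -0.59 to -0.48. Cacna1c, the pore of the cardiac L-type channel, fell in both comparisons with Ant1 vector (log2 -0.38 and -0.33), as Ryr2 did. Tcap (telethonin), Atp1b1 and Cav3 rose in knockout with control vector and were lower in knockout hearts with Ant1 vector than with control vector (log2 -0.74, -0.56 and -0.48), the pattern of levels that Pln showed without reaching the threshold in its first step. These 2 comparisons share the knockout hearts with control vector.

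**Figure D5:**
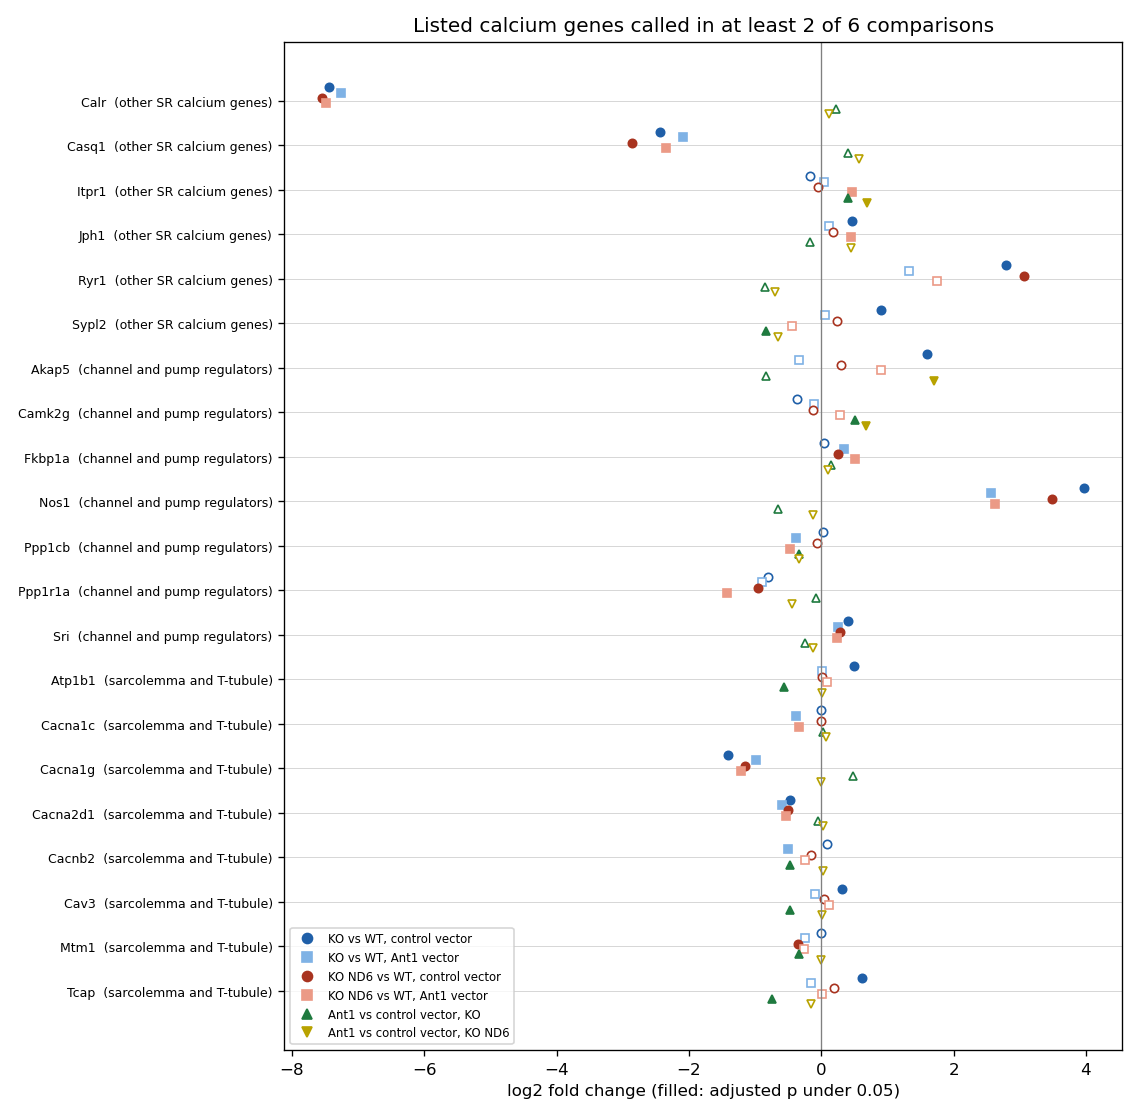
log2 fold changes (horizontal axis) of the 21 listed calcium genes called in at least 2 of 6 comparisons, with filled symbols for an adjusted p under 0.05, circles and squares for Ant1 -/- against wild type and triangles for Ant1 against control vector. Calr lies near -7 in the 4 genotype comparisons and near 0 in both vector comparisons.

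Likeness over the 22 hearts was read for the 7 members that were called, as the Pearson r of log2 CPM with 6138 genes of at least 20 CPM on average. These are descriptions over hearts that share tables and genotypes. Sln was most like Myl7 (r = 0.98) and Stard10 (0.948), and its r with Myl7 was 0.949 without heart 5 and 0.946 without the 2 hearts farthest from the median Myl7. S100a1 was most like Pacsin2 (0.944) and Gnb3 (0.943), Pln most like Bzw2 (0.907) and Tmem70 (0.898), and Ryr2 most like Nfix (0.893) and Myh10 (0.825). For Casq2 the nearest were Msrb3 (0.896) and Dpm2 (0.889), for Slc8a1 Vps35 (0.889) and Rfk (0.862), and for Atp2a2 Tcaim (0.863) and Atrn (0.859).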

How the data were processed

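Heart RNA was read by AmpliSeq (1 amplicon per gene, Ion Torrent), and the authors deposited raw read counts per amplicon in 14 tables of 8 libraries, on build mm10, per the submitters' processing notes. No source used here names the aligner or the counting settings. Of 112 libraries, 2 (80a and 80b, whose title code and treatment label disagree) were left out, and 110 were summed into 22 hearts. Library totals ran from 2893780 to 8531273 counts. The lowest count of a member in a heart was 1335 (Sln, heart 5), a counting error of 2.74%.

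Genes were filtered with filterByExpr, scaled by TMM and fitted with edgeR 4.0.16 (R 4.3.3), 7 groups in 1 fit, quasi-likelihood test, Benjamini-Hochberg adjustment over 15403 genes, threshold 0.05. On simulated counts for knockout against wild type with control vector (15048 genes tested), the fit recovered 3 of 50 genes changed 1.3-fold, 20 of 50 changed 1.5-fold, 35 of 50 changed 2-fold and 46 of 50 changed 4-fold, with 6 false calls. The changed genes were drawn at random from all tested genes, those with low counts among them. The rates are therefore not those of the members, whose lowest count in a heart was 1335. Alternatives used DESeq2 1.42.0, limma 3.58.1 with the count table as covariate, other scaling, filters and groupings, and each heart left out. The limma fit took single libraries as its units, with a correlation of 0.197 between libraries of a heart. Gene positions are from GENCODE M21.

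All members are named in the text. Of the pathway lists, at most 4 genes per list and comparison, those with the smallest adjusted p among called genes, and the genes called in every genotype comparison are named. Likeness names the 2 genes with the highest r. The members and lists were chosen with earlier results of these data known. Single-nucleus data (3 samples) were left aside.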

Additional observations from a re-analysis of the deposited data

Results flagged for a closer look

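Slc25a4 stood at 169.1 CPM in heart 61 and 151.3 CPM in heart 91, which the labels call control vector and which enter no comparison, against at most 0.851 CPM in the 3 knockout ND6 hearts of the control-vector group. Their title code is that of the Ant1 vector hearts. For the calcium genes, these hearts had 1009 and 956 CPM of S100a1, 10850 and 11580 CPM of Atp2a2, and 749 and 781 CPM of Casq2. No member had a heart that lay apart by Dixon's test within the groups of 4 hearts; the groups of 3 were not tested.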

How the results depend on the processing

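Over 1629 alternatives of single members' values, 1451 kept their sign and side of the threshold, 79 changed sign and were called in neither fit, 76 passed the threshold newly, 23 no longer passed it, and 0 changed sign where either fit called them. Without hearts 27 and 37, Jph2 in knockout ND6 by vector went from 0.25 to -0.03. S100a1 was called in all alternatives of its 4 comparisons, as were Pln in knockout by vector, Atp2a2 in knockout ND6 against wild type with control vector, Ryr2 in knockout and Sln in knockout ND6 against wild type with Ant1 vector. The counts of members called moved as follows, each with the share of all genes called in the same fit, and the cause was not tested. With each library as a replicate, which treats repeat libraries as independent, they were 4 (knockout), 6 (knockout ND6) and 5 (knockout ND6 against knockout) with control vector, 5, 8 and 3 with Ant1 vector, 3, 7 and 6 for vector in wild type, knockout and knockout ND6, and 4 and 1 for the tests of vector effects between genotypes (12.6% to 44.2% of all genes). With the count table as covariate they were 2, 7 and 5 with control vector (21.6%, 19.4% and 14.3%), 3, 6 and 3 with Ant1 vector (13%, 17.3% and 13.5%) and 1 for the knockout vector effect against wild type (3.91%), and vector comparisons could not be fitted. With only the compared groups they were 2, 4 and 3 with control vector (14.8%, 14.6% and 6.05%), 0 for knockout ND6 against knockout with Ant1 vector (0.255%) and 0 for vector in knockout ND6 (1.32%). DESeq2 gave 2 and 3 for knockout and knockout ND6 with control vector (17.3% and 15.5%), 3 and 6 with Ant1 vector (14.4% and 23.5%) and 4 for vector in knockout (11.6%). With Xist as covariate the counts were 2, 2 and 1 for knockout against wild type with control vector, vector in knockout and its test against wild type (10%, 7.05% and 0.844%). Xist was near 0 in all hearts but 23 (1.76 CPM), and the Y-linked gene Ddx3y had 196 to 273 CPM over the 22 hearts. Without the filter they were 0 for knockout ND6 against knockout with control vector (0.569%) and 0 for vector in knockout ND6 (1.22%). Hearts 61 and 91 counted as control gave 2 for knockout ND6 against knockout (4.2%) and 0 for vector in knockout ND6 (1.72%), and counted as Ant1 vector 0 for vector in knockout ND6 (0.134%) and 0 for knockout ND6 against knockout (0.541%). Without hearts 27 and 37, vector in knockout gave 2 (9.71%) and knockout against wild type with Ant1 vector 3 (13.7%). Leaving out single hearts gave 0 to 1 for knockout ND6 against knockout with either vector and for vector in knockout ND6, 2 to 3 for knockout ND6 with control vector and knockout with Ant1 vector, 4 to 5 for knockout ND6 with Ant1 vector, and the main count elsewhere. No paired analysis was possible because the groups compared share no heart numbers. The counting error of a member in a heart was at most 2.74%, which covers counting only since amplified reads are not independent molecules; coefficients of variation between hearts of a group were 1.89% to 58.3% (median 8.49%).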

Other observations

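Genes next to S100a1 on chromosome 3 were read after its values had been seen. Within 100 kb, 8 other tested genes gave 32 values in the 4 comparisons of Ant1 -/- with wild type, from -0.46 to 0.30 on the log2 scale, and 2 were called: Npr1 lower (log2 -0.46, adjusted p = 0.00669) and Ints3 higher (log2 0.26, adjusted p = 0.0359), both in knockout with control vector by edgeR. S100a13, whose start lies beside that of S100a1, had values of 0.15 and 0.30 with control vector and 0.15 and -0.05 with Ant1 vector (adjusted p = 0.194 to 0.861), and S100a16 had -0.32 to -0.12 (adjusted p = 0.0934 to 0.598). The rise of S100a1 was thus larger than any value of these neighbours.

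Hearts of every genotype held markers of other tissues. The sum of 4 liver markers was 190 CPM in wild-type heart 23 and 15.1 and 12.9 CPM in wild-type hearts 24 and 25. It was 0.681 CPM in wild-type heart 70, 0.381 to 0.588 CPM in wild-type hearts with Ant1 vector and at most 2.6 CPM in Ant1 -/- hearts. Hearts 23, 24 and 25 shared their count tables with knockout heart 35, which had 0.817 CPM. The sum of 5 adipocyte markers was 461 and 197 CPM in wild-type hearts 70 and 25, 240 and 216 CPM in knockout hearts 21 and 27 with Ant1 vector and 178 CPM in knockout ND6 heart 20 with control vector. The highest sum of 6 skeletal muscle markers, 36.8 CPM, was that of knockout ND6 heart 37, against 6.12 to 17.4 CPM in the other hearts. Their part in the members' values was not tested.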
